A study of Homo sapiens with 3 samples.

Results

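RAP proteins are small GTPases of the RAS superfamily, and 10 human genes that encode RAP GTPases, their exchange factors or their GTPase-activating proteins (GAPs) were followed in HCT116 cells. The genes are named by symbol, and no threshold on their values entered the choice, although earlier results of these data were known when it was made. They are RAP1A, RAP1B, RAP2A and RAP2B (GTPases), RAPGEF1, RAPGEF2, RAPGEF5 and RAPGEF6 (exchange factors), and RAP1GAP2 and SIPA1 (GAPs). All 10 were found among the 15625 genes of the deposited table, and all 10 passed the filter on low values, a mean of at least 1 FPKM over the libraries. HCT116 is a human colorectal carcinoma cell line. RNA was sequenced in 2 libraries from cells given shRNA against circRAPGEF5 (sh_circRAPGEF5_1 and sh_circRAPGEF5_2, called knockdown libraries 1 and 2) and in 1 library from cells given a control shRNA (sh_control). Every library carries the genotype label MT, which the labels do not explain, and cells were collected after 36 or 48 h, without a statement of which library had which time. Whether different hairpins or separate cultures stand behind the knockdown libraries is not in the labels, and p-values can therefore reflect technical spread alone.

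A RAP GTPase is active when it holds GTP. Exchange factors (GEFs) load it with GTP, and GAPs speed up GTP hydrolysis and so switch it off. RAP1 is best known for control of integrin adhesion and of cell-cell junctions, and it can bind RAF kinases, which places it beside the RAS/RAF/MEK/ERK pathway named in the series title. RAPGEF5 is also the host gene of circRAPGEF5, a circular RNA made from its exons. The values below are for genes, from a library kit that selects polyadenylated RNA, and they do not measure the circular RNA, so they do not check the knockdown.

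FPKM corrects the fragments of a gene for its length and for the depth of the library, so genes can be compared within a library. It does not correct for a different make-up of the RNA, which limits comparisons between libraries. Median-ratio scaling factors of the values were 0.9802 and 0.9968 in knockdown libraries 1 and 2 and 1.053 in the control. The smallest whole read numbers that give the deposited ratios summed to 14831445 in knockdown library 1, 15757817 in knockdown library 2 and 14632390 in the control, and the true numbers may be larger. Of 8 colon epithelial markers, 7 had at least 1 FPKM in every library, with summed levels of 2690 and 3960 FPKM in the knockdown libraries and 2400 FPKM in the control. The keratins KRT8, KRT18 and KRT19 dominated these sums, and these 3 were the only markers higher in both knockdown libraries. CDH1 was lower in both, at 20.3 and 26.7 against 33.1 FPKM, and EPCAM, CLDN4 and CDX2 lay on both sides of the control. VIL1, the villin gene, was at or near 0 in every library. Values were at hand for 2 of 5 fibroblast, 4 of 5 leukocyte and 1 of 4 endothelial markers, and of these 7 only COL1A1 and CD68 reached 1 FPKM in every library; the other listed markers were not analysed here. The summed fibroblast markers were at 4.71 and 8.43 FPKM in the knockdown libraries and 13.5 FPKM in the control, the leukocyte markers at 3.67 and 8.15 against 2.06 FPKM, and the endothelial marker VWF at 0.0137 and 0.0453 against 0.132 FPKM. The defining leukocyte marker PTPRC was at 0 in knockdown library 1 and in the control. Replication-dependent histones were listed as a sign of RNA quality because most of their transcripts lack poly(A) tails. They summed to 121 and 125 FPKM in the knockdown libraries and 66.9 FPKM in the control. Of the 5 that were tested, 4 (H1-2, H2AC6, H2BC4 and H2BC5) were higher in both knockdown libraries, beside 31.7% of all genes tested. These 4 had an unadjusted limma p under 0.05, beside 7.07% of all genes tested, and none was called after adjustment. The median difference of the 5 was 1.15 on the log2(FPKM + 1) scale, against -0.048 over all genes tested. H2BC12, a large part of the sum, was at 31.3 and 76.1 FPKM there, against 40.0 FPKM in the control. The part that any of these differences has in the results below was not tested.

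The promoter windows of 4 members are shown for reference. RAPGEF1 and RAP2A had the largest differences between the groups, RAP1B was the GTPase higher in both knockdown libraries by the widest margin, and RAPGEF5 is the host gene. Each window runs from 250 bases before to 50 bases after a RefSeq transcript start (build GRCh38.p14), 5′ to 3′ on the gene's strand. Where a gene has several starts, the one farthest upstream in the RefSeq table was taken. Capitals mark GC boxes (GGGCGG), full cAMP response elements (TGACGTCA), AP-1 elements (TGANTCA) and ETS elements (CCGGAAGT), searched on both strands, with overlapping matches merged into 1 run of capitals.
RAPGEF1, chr9:131740027-131740326, minus strand: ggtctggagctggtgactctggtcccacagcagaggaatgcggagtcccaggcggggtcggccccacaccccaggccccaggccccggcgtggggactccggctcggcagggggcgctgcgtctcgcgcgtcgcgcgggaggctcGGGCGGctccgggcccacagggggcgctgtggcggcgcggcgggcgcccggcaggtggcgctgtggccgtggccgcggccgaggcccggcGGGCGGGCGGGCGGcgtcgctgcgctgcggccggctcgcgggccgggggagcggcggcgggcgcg
RAP2A, chr13:97433919-97434218, plus strand: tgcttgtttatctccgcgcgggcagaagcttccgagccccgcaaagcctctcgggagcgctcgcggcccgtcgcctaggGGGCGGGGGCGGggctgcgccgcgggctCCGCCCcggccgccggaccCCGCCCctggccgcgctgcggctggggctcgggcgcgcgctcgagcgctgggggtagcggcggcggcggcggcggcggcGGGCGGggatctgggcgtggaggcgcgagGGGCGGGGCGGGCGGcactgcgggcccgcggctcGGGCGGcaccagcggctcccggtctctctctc
RAP1B, chr12:68610649-68610948, plus strand: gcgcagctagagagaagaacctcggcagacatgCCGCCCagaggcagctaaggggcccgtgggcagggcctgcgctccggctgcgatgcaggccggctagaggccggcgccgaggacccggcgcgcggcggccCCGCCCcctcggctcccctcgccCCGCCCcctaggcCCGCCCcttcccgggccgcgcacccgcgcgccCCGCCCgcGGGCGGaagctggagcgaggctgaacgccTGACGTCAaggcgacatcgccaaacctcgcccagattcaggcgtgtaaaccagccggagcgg
RAPGEF5, chr7:22194761-22195060, minus strand: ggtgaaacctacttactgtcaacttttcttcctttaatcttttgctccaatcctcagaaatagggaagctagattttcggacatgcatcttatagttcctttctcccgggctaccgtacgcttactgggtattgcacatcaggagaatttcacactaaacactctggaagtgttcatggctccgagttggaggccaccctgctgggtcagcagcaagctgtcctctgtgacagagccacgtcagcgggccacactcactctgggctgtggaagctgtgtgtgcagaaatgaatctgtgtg

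All 10 members matched a RefSeq window by symbol. A GC box was present in 8 of the 10 windows, against 45% of all 35114 windows of the same length. The set of all windows holds several starts for some genes and was not limited to tested genes, while each member gave 1 window. The sets are therefore unlike, here and for the other elements. RAP2A held 9 overlapping or separate GC boxes, RAP1B 6 and RAPGEF1 4, and the RAPGEF5 window held no match to any of the searched letters. The cAMP response element was found in 1 member window, that of RAP1B, and in 1.85% of all windows. The AP-1 letters occurred in 7.71% of all windows and the ETS letters in 4.14%, and neither occurred in a member window. The windows differed in base composition, with 83.0% G and C in RAPGEF1, 82.0% in RAP2A, 75.7% in RAP1B and 49.3% in RAPGEF5. The RAPGEF5 window lies inside the gene as GENCODE 29 draws it (GRCh38, chromosome 7, 22118238 to 22357144, minus strand), whose annotated 5′ end is farther upstream.

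Among the exchange factors, RAPGEF1 was the lowest in the knockdown libraries relative to the control, and RAPGEF5, RAPGEF2 and RAPGEF6 lay on both sides of it. RAPGEF1 is recruited by CRK adaptors to tyrosine-phosphorylated proteins and activates RAP1 (Entrez 2889, GRCh38 chromosome 9, 131576770 to 131740074, minus strand). It was at 2.93 FPKM in knockdown library 1 and 8.02 FPKM in knockdown library 2, against 16.3 FPKM in the control. Each knockdown library was below the control, and they also stood apart from each other. In bulk RNA, fewer cells that express a gene and less of its RNA per cell cannot be told apart. The 95% exact Poisson counting intervals were 2.69 to 3.19, 7.63 to 8.42 and 15.7 to 16.9 FPKM in that order, and did not overlap. Such intervals cover counting error only. The mean difference was -1.54 ± 0.52 (SE) on the log2(FPKM + 1) scale, -2.14 in library 1 and -0.94 in library 2, and the limma adjusted p over all genes tested was 0.58. Of all tested genes, 0.927% lay at least as far from 0. The difference between the knockdown libraries themselves was -1.20 (library 1 minus library 2), and 5.01% of tested genes differed as much.

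RAPGEF5, which activates RAP GTPases and carries the circular RNA in its locus, was the least abundant member in every library (Entrez 9771). Its level was 1.33 FPKM in knockdown library 1 and 2.73 FPKM in knockdown library 2, against 1.98 FPKM in the control. The control sat between the knockdown libraries, and the 3 counting intervals (1.17 to 1.5, 2.51 to 2.97 and 1.78 to 2.18 FPKM) did not overlap. These intervals cover counting error only and rest on at least 261, 568 and 382 reads. The knockdown libraries differed by -0.68 on the log2(FPKM + 1) scale (library 1 minus library 2), and 20.9% of tested genes differed as much. The mean difference was -0.012 ± 0.47 (SE) with a 95% interval from -1.04 to 1.02 on the log2(FPKM + 1) scale. A difference of up to about 2-fold in FPKM + 1, in either direction, therefore lies within the limma interval. At this low level the matching range in FPKM itself is wider. The sign of this mean turned to positive with a pseudocount of 5, with median-ratio rescaling and with quantile normalization.

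RAPGEF2 and RAPGEF6 are paralogs, also known as PDZ-GEFs, with a PDZ domain and activity toward RAP1 and RAP2. RAPGEF2 was at 5.93 and 3.64 FPKM in the knockdown libraries and at 4.33 FPKM in the control. RAPGEF6 was at 5.40 and 3.62 FPKM in the knockdown libraries and at 4.28 FPKM in the control. For both genes library 1 was above the control and library 2 below it. Their ratio, RAPGEF2 over RAPGEF6, was 1.1 and 1 in the knockdown libraries and 1.01 in the control, so the pair had nearly the same level in each library. The mean differences were 0.087 ± 0.46 for RAPGEF2 and 0.042 ± 0.45 for RAPGEF6 (SE, log2 scale), with limma adjusted p of 0.983 and 0.995.

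**Figure D1:**
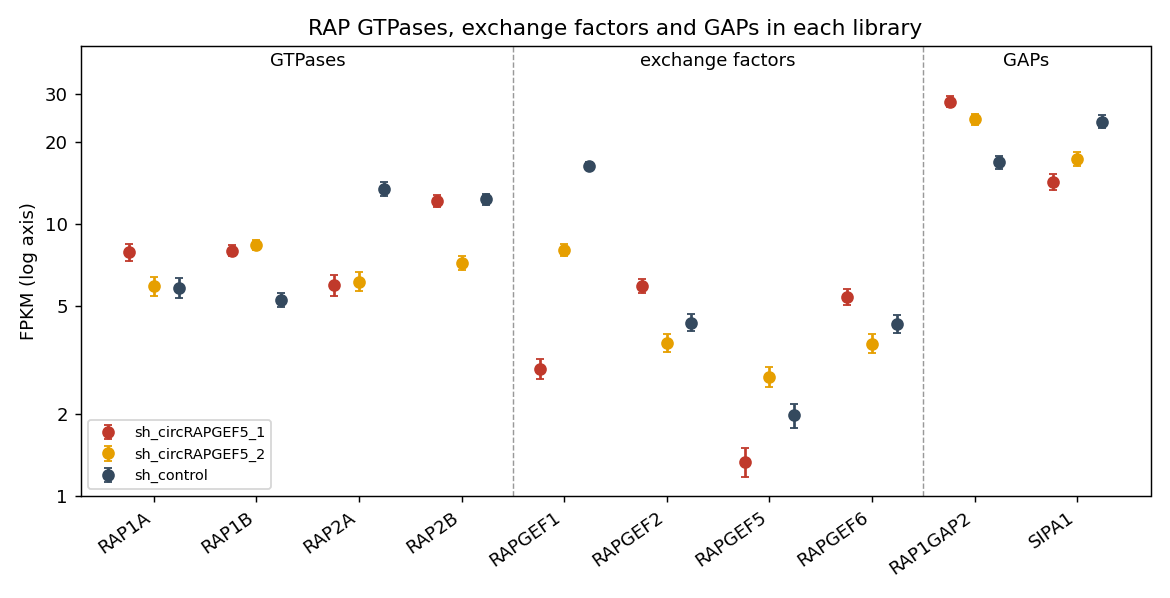
FPKM (log axis) of each member in the knockdown libraries and the control, with 95% exact Poisson intervals for counting error from the smallest whole read numbers. RAPGEF1 and RAP2A are lower in both knockdown libraries than in the control, while the control value of RAPGEF5 lies between the knockdown libraries.

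The summed level of the 4 exchange factors was 15.6 and 18 FPKM in the knockdown libraries and 26.9 FPKM in the control, or 0.579 and 0.669 times the control. Without RAPGEF1, the other exchange factors summed to 12.7 and 9.99 FPKM in the knockdown libraries and 10.6 FPKM in the control. RAPGEF1 made up 18.8% and 44.5% of the summed exchange factor level in the knockdown libraries and 60.6% in the control. RAPGEF2 made up 38% and 20.2% there, against 16.1% in the control, and RAPGEF6 34.6% and 20.1%, against 15.9%. In knockdown library 1 the most abundant exchange factor was RAPGEF2, and in knockdown library 2 and the control it was RAPGEF1. The share of RAPGEF5 was 8.54% and 15.2% in the knockdown libraries and 7.34% in the control. Shares of a sum depend on each other, so a lower RAPGEF1 raises the shares of the other genes. By FPKM, RAPGEF5 was below the control in knockdown library 1, at 1.33 against 1.98. In knockdown library 2, RAPGEF2 (3.64 against 4.33 FPKM) and RAPGEF6 (3.62 against 4.28 FPKM) were below the control. Median-ratio rescaling multiplies all genes of a library alike and leaves these shares as they are.

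Among the GTPases, RAP2A was lower in both knockdown libraries and RAP1B higher in both. RAP2A belongs to the RAP2 group, whose GTPases bind the kinases TNIK, MINK1 and MAP4K4 (Entrez 5911, GRCh38 chromosome 13, 97434222 to 97469128, plus strand). Its level was 5.94 and 6.12 FPKM in the knockdown libraries, against 13.4 FPKM in the control. Library 1 and library 2 lay close together and well below the control, with a mean of 6.03 ± 0.125 FPKM (SD, n = 2). The mean difference was -1.03 ± 0.42 (SE) on the log2(FPKM + 1) scale, and the limma adjusted p was 0.643. Of all tested genes, 5.53% lay at least as far from 0. RAP2A was the only member at least 2-fold away from the control in both knockdown libraries on this scale, at -1.05 and -1.01, so it lay close to that limit. Of all tested genes, 2.92% were 2-fold away in both libraries, 1.7% lower and 1.21% higher. With median-ratio rescaling, quantile normalization or a pseudocount of 5, RAP2A was no longer past the limit. With a pseudocount of 0.1, RAPGEF1 was past it as well as RAP2A.

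RAP2B, a close relative of RAP2A, was at 12.1 and 7.17 FPKM in the knockdown libraries and at 12.3 FPKM in the control (Entrez 5912). Knockdown library 1 was level with the control within the counting intervals, which cover counting error only, and library 2 was lower. Between the knockdown libraries, 21.0% of tested genes differed as much as RAP2B. On the log2 scale its mean difference from the control was -0.36 ± 0.45 (SE, limma adjusted p 0.916). The ratio of RAP2A to RAP2B was 0.493 and 0.854 in the knockdown libraries and 1.09 in the control, so the more abundant gene of the pair was RAP2B in both knockdown libraries and RAP2A in the control. RAP2C, the remaining RAP2 gene, was at 13.6 and 8.67 FPKM in the knockdown libraries and 12.5 FPKM in the control, so library 1 was above the control and library 2 below it.

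RAP1B is the RAP1 isoform best known from platelets, where it acts on integrin activation (Entrez 5908). It was at 7.96 and 8.37 FPKM in the knockdown libraries and at 5.24 FPKM in the control. Both knockdown libraries were above the control, with a mean of 8.17 ± 0.292 FPKM (SD, n = 2). RAP1B differed by 0.55 ± 0.43 on the log2 scale (SE, limma adjusted p 0.842), and 27.0% of tested genes lay at least as far from 0. RAP1A, whose protein is nearly the same as that of RAP1B, was at 7.86 and 5.90 FPKM in the knockdown libraries and 5.81 FPKM in the control (Entrez 5906). Only library 1 was above the control beyond the counting intervals, which cover counting error only. Between the knockdown libraries, 47.4% of tested genes differed as much as RAP1A. Its mean difference from the control was 0.20 ± 0.44 (SE, limma adjusted p 0.960). GENCODE 29 lists 3 processed pseudogenes named after RAP1B and 1 named after RAP1A. How the authors' counting treated reads shared with these copies is not given in the sources used here, so both RAP1 values are uncertain to that extent.

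The summed level of the 4 GTPases was 33.8 and 27.6 FPKM in the knockdown libraries and 36.7 FPKM in the control. RAP2A made up 17.6% and 22.2% of the sum in the knockdown libraries and 36.5% in the control. RAP1B made up 23.5% and 30.4% in the knockdown libraries and 14.3% in the control, and RAP1A 23.2% and 21.4%, against 15.8%. RAP2B, at 35.7% and 26.0% against 33.4%, did not lie on one side of the control. As for the exchange factors, these shares depend on each other. In the control the RAP2 genes were both more abundant than the RAP1 genes, an order that held in knockdown library 1 for RAP2B only and in knockdown library 2 for neither gene, since RAP1B was the highest there.

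**Figure D2:**
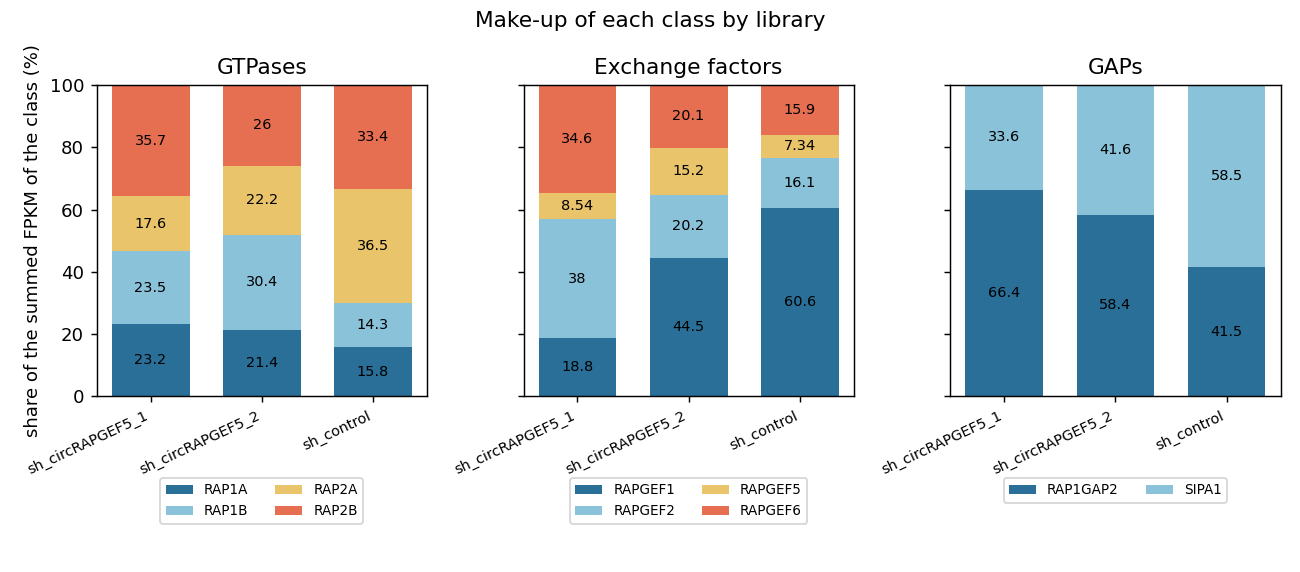
Share of each member in the summed FPKM of its class, in percent, for knockdown libraries 1 and 2 and the control. RAPGEF1 is 18.8% and 44.5% of the exchange factor sum in the knockdown libraries and 60.6% in the control, and RAP1GAP2 is 66.4% and 58.4% of the GAP sum against 41.5%.

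The GAPs were the most abundant of the members and went in opposite directions. RAP1GAP2, which stimulates GTP hydrolysis by RAP1, was at 28.1 and 24.2 FPKM in the knockdown libraries and 16.8 FPKM in the control (Entrez 23108, GRCh38 chromosome 17, 2755705 to 3037739, plus strand). Each knockdown library was above the control, with a mean of 26.1 ± 2.76 FPKM (SD, n = 2). On the log2 scale the mean difference was 0.60 ± 0.40 (SE, limma adjusted p 0.816). SIPA1, also called SPA-1, a GAP for RAP1 and RAP2, was at 14.2 and 17.3 FPKM in the knockdown libraries and 23.7 FPKM in the control (Entrez 6494). Libraries 1 and 2 were each below the control, with a mean of 15.8 ± 2.13 FPKM (SD, n = 2). On the same scale SIPA1 differed by -0.57 ± 0.41 (SE, limma adjusted p 0.831). Differences of this size were common: 23.2% of tested genes lay at least as far from 0 as RAP1GAP2, and 25.9% as SIPA1.

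RAP1GAP2 was thus 1.97 and 1.40 times as abundant as SIPA1 in the knockdown libraries and 0.709 times in the control. The sum of the GAPs was 42.3 and 41.4 FPKM in the knockdown libraries and 40.5 FPKM in the control, or 1.04 and 1.02 times the control. In all 3 libraries the GAPs held the top 2 places among the members by FPKM, RAP1GAP2 first in the knockdown libraries and SIPA1 first in the control.

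**Figure D3:**
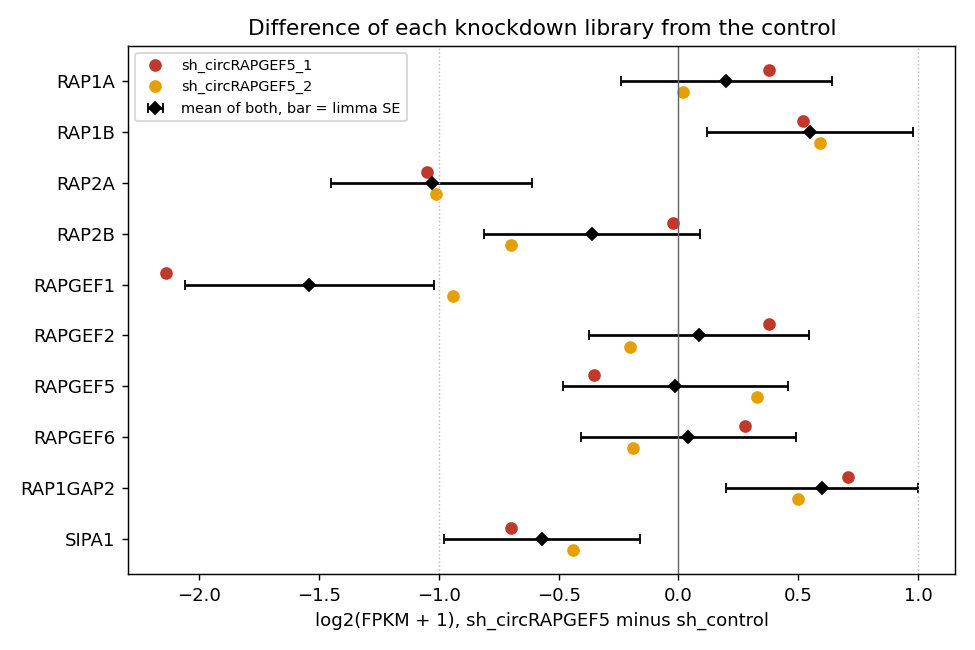
Difference of log2(FPKM + 1) from the control for each member, with knockdown libraries 1 and 2 as dots and their mean with the limma standard error as a diamond. Both dots lie below 0 for RAPGEF1, RAP2A, SIPA1 and RAP2B, both lie above 0 for RAP1B, RAP1GAP2 and RAP1A, and RAPGEF5, RAPGEF2 and RAPGEF6 have 1 dot on each side.

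Across the 10 members, limma called 0 higher and 0 lower at an adjusted p of 0.05, with 2 members (RAPGEF1 and RAP2A) at an unadjusted p under 0.05. Over all 11216 genes tested, 0.0178% were called and 7.07% had an unadjusted p under 0.05. Both knockdown libraries were above the control for 3 members and below it for 4, and 3 members had the control between the knockdown libraries. The shares over all genes tested were 31.7% above, 37.6% below and 30.7% between, close to those of the members. The median difference of the members was 0.015, against -0.048 over all genes tested. By knockdown library the members' medians were 0.13 in library 1 and -0.20 in library 2. Both differences share the single control library, so a control value that is high or low by itself moves both in the same direction. The smallest p that an exact permutation test of 2 libraries against 1 allows is 0.333, as only 3 splits exist.

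The wider set of RAP cycle genes came from lists by function. Of 37 listed genes, 26 passed the filter, and 0 were called higher or lower by limma, with 0 at an unadjusted p under 0.05. Both knockdown libraries were above the control for 9 of them, below it for 9 and on opposite sides for 8, and the median difference was -0.046. Over all genes tested these shares were 31.7%, 37.6% and 30.7%, and the median was -0.048. Among exchange factors outside the members, the cAMP-activated RAPGEF3 and RAPGEF4 (the EPAC genes) stayed under 0.5 FPKM in every library and were not tested. RASGRP2, a calcium- and diacylglycerol-responsive activator of RAP1, was at 0.828 and 2.68 FPKM in the knockdown libraries and 4.50 FPKM in the control, a mean difference of -1.08 with a limma adjusted p of 0.714. RAPGEFL1, an exchange factor-like gene, was at 2.62 and 2.84 against 4.09 FPKM, and RASGEF1A, an exchange factor for RAS and RAP2 proteins, at 11.2 and 6.91 against 11.2 FPKM. All 3 tested exchange factors of this list, out of 10 listed, were below the control in both knockdown libraries. RASGEF1A differed by only -0.0063 in library 1. Over all genes tested, 37.6% were below the control in both.

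Among the other GAPs, RAP1GAP, the paralog of RAP1GAP2, differed most between the knockdown libraries, at 2.07 and 7.72 FPKM against 5.05 FPKM in the control. SIPA1L1, a paralog of SIPA1, was at 4.6 and 6.42 FPKM against 8.26 FPKM in the control, and RASA3, a GAP for RAS and RAP1, at 8.06 and 10.1 against 6.18 FPKM. SIPA1L2 was at 2.51 and 4.97 against 3.05 FPKM. None of the 5 tested GAPs of this list passed the test, with limma adjusted p from 0.859 to 0.992.

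Of the 5 listed adaptors around RAPGEF1, which link it to receptors and adhesions, 4 were tested, and both knockdown libraries were above the control for 2 of them and on opposite sides of it for the other two. BCAR1, a docking protein of focal adhesions, was at 14.0 and 16.1 FPKM in the knockdown libraries and 8.99 FPKM in the control. CRKL was at 43.6 and 46.4 against 38.4 FPKM, CRK at 53.2 and 32.0 against 33.7 FPKM, and CBL at 13.7 and 17.5 against 15.7 FPKM. None of these passed the test, with limma adjusted p of 0.802 for BCAR1 and above it for the others. GAB1, a docking protein below the filter, was at 0.201 and 0.231 FPKM in the knockdown libraries and 0.434 FPKM in the control.

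Of 8 listed RAP1 effectors, 5 passed the filter and were tested. ITGB1BP1, a regulator of integrins that also binds KRIT1, was at 11.6 and 11 FPKM in the knockdown libraries and 6.95 FPKM in the control, a mean difference of 0.63 with a limma adjusted p of 0.816. KRIT1, a RAP1 effector at junctions, was at 11 and 10.7 against 9.29 FPKM, and AFDN, the junction protein afadin, at 11.6 and 14.1 against 16.7 FPKM. RASSF5, which links RAP1 to integrins in lymphocytes, was at 1.13 and 3.45 against 2.37 FPKM. Among the RAP2 effector kinases, MAP4K4 was at 32.8 and 33.1 against 34.0 FPKM, TNIK at 3.99 and 5.21 against 3.98 FPKM, and MINK1 at 34.0 and 29.2 against 39.2 FPKM. Of the 5 genes that prenylate, process or chaperone RAP proteins, ICMT, the carboxyl methyltransferase, was farthest from the control, at 29 and 24 against 35.7 FPKM, followed by the chaperone RAP1GDS1 at 15.7 and 16.1 against 13 FPKM. The protease RCE1 had a mean difference of 0.16, and FNTA, a subunit of farnesyl and geranylgeranyl transferases, one of 0.14.

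**Figure D4:**
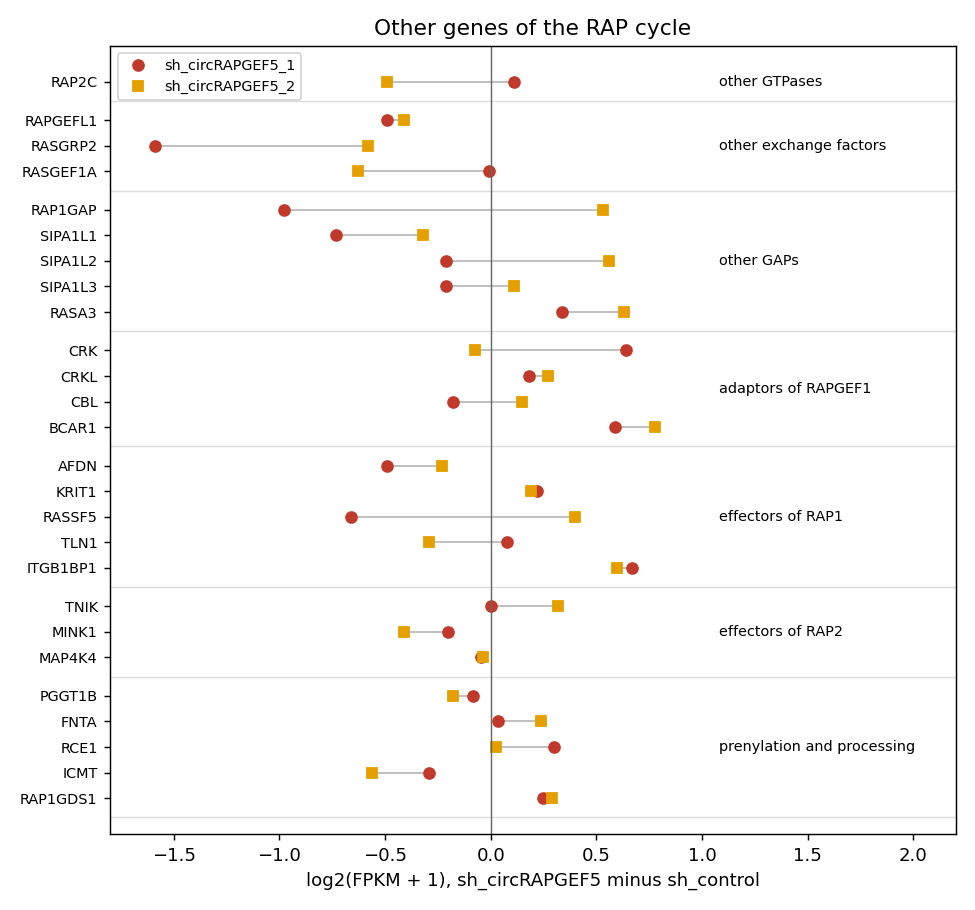
Difference of log2(FPKM + 1) from the control for the 26 tested genes of the wider RAP lists, with a circle for knockdown library 1 and a square for knockdown library 2. RASGRP2 lies to the left of 0 in both libraries, and RAP1GAP spans 0 with library 1 on the lower side.

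The deposited annotation assigns 185 genes to the KEGG Rap1 signaling pathway, 7 of them members. RAP2A, RAP2B and RAP1GAP2 are not annotated to it. Of the 178 genes that are not members, 131 were tested and limma called 0, with 15 at an unadjusted p under 0.05, beside 7.07% of all genes tested. Both knockdown libraries were above the control for 30.5% of them, below it for 37.4% and on opposite sides for 32.1%, beside 31.7%, 37.6% and 30.7% over all genes tested. On the log2(FPKM + 1) scale, 5 of the 131 genes were at least 2-fold higher in both libraries and 1 at least 2-fold lower. The shares over all genes tested were 1.21% and 1.7%. These were ADORA2B, MAGI1, MAP2K3, EPHA2 and RAC2 on the higher side and EFNA2 on the lower side, of which EPHA2, RAC2 and EFNA2 are named after their values were seen. The genes farthest from 0 were ADORA2B, an adenosine receptor that raises cAMP (12.6 and 11.8 FPKM in the knockdown libraries and 3.12 FPKM in the control), the junction scaffold MAGI1 (17.8 and 11.6 against 4.88 FPKM), the p38 activator MAP2K3 (77.2 and 54.0 against 25 FPKM) and the growth factor PDGFC (1.90 and 1.06 against 4.75 FPKM). Their limma adjusted p ran from 0.449 for ADORA2B to 0.623 for PDGFC.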

How the data were processed

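RNA-seq of HCT116 cells was deposited as FPKM per gene, computed by the authors. Pathway names stand beside them, as other values (text) deposited in the same table. Trimmomatic, HISAT2 and GRCh38.p13 appear in the submitters' processing notes; what counted the fragments, with which strand setting, annotation and versions, is not given in the sources used here. Genes with a mean of at least 1 FPKM (11216) were tested on log2(FPKM + 1), where fold changes of low genes are understated. The 2 knockdown libraries were set against the 1 control with limma (version 3.58.1, R 4.3.3) and its trend of variance on mean, with Benjamini-Hochberg adjustment over all genes tested and a threshold of 0.05. Only 1 residual degree of freedom remained beside 10.92 estimated prior ones, so the single control is assumed to vary like the knockdown libraries. On data simulated from the fitted model this step returned, on average, close to the differences put in, which checks the computation only. The simulated control had the same spread as the knockdown libraries, so that assumption was not checked. Library 1 was 1.01 and library 2 was 1.07 times as deep as the control; the smallest whole reads were taken from ratios of the values, within a relative tolerance of 1e-10. Gene positions come from GENCODE 29 and promoters from RefSeq. The members and lists were chosen with earlier results of these data known. Named genes are all members and, per wider list and for the pathway, up to 4 tested genes with the largest mean difference in size. A gene of these lists is not reported here and is left out of their counts. Tried besides were pseudocounts of 0.1 and 5, no filter or a mean of at least 5 FPKM, median-ratio and quantile scaling, no trend, robust fitting, a prior of 5 degrees of freedom, and either knockdown library alone.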

Additional observations from a re-analysis of the deposited data

How the results depend on the processing

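No member was called in the limma fit as reported or in any of its 9 alternatives, where the lowest adjusted p of a member ran from 0.458 to 0.924. RAPGEF1 and RAP2A had an unadjusted p under 0.05 in the reported fit and in each alternative but the one with no filter, where 0 members did. Over all genes, 2 genes were called; 1 was called with a pseudocount of 5, median-ratio rescaling, no trend or robust fitting, and 0 with no filter, quantile normalization or the prior fixed at 5 degrees of freedom. The number of members at least 2-fold away in both libraries was 1, against 2 (RAP2A and RAPGEF1) with a pseudocount of 0.1 and 0 with a pseudocount of 5, median-ratio rescaling or quantile normalization. RAPGEF5 turned sign, to 0.0045 with a pseudocount of 5, 0.047 with median-ratio rescaling and 0.26 with quantile normalization. The members' median turned to -0.36 with a mean of at least 5 FPKM, where 7 members remained. Leaving out 1 knockdown library gives a value with no test: the median ran from -0.20 to 0.13, RAPGEF2 from -0.20 to 0.38, RAPGEF5 from -0.35 to 0.33 and RAPGEF6 from -0.19 to 0.28, and no other member turned sign. No paired analysis was possible because there is 1 control library and its label carries no replicate number. The lone control limits every comparison, since its own spread was not measured. At least 261 reads stand behind each value of a member.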
